A study of Mus musculus with 11 samples.

Results

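The genes described here encode the proteins of the small (40S) subunit of the cytosolic ribosome. They were taken as a list of 32 Ensembl identifiers, named Rps2 to Rps29, Rpsa and Fau, out of 22019 genes in the count table. Of the 32, 31 had a count in at least 1 library. Ribosome footprints came from livers of male wild-type mice on Chow Diet or on a High Fat High Sugar (HFHS) diet, which the column names call HFD. All mice carried the same genotype label (WT), and the labels name no treatment other than diet. Monosome footprints mark single ribosomes on a coding sequence, and disome footprints mark a ribosome packed against the one ahead of it. The title of the study concerns impaired translation and the kinase ZAK, which senses collided ribosomes. There were 3 chow and 3 HFHS monosome libraries, and 3 chow and 2 HFHS disome libraries.

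Cells make the small-subunit proteins in equal numbers, since each 40S particle holds 1 copy of nearly every one. Their mRNAs are short, abundant and, in mammals, usually begin with a cytosine followed by a stretch of pyrimidines, the terminal oligopyrimidine (TOP) motif. The kinase mTORC1 and the protein LARP1 act through this motif to set how many ribosomes load onto these mRNAs when nutrients or insulin change. The genes also have many processed pseudogenes, so the reads of some members can be shared with near-identical copies. Several of the proteins are themselves marks of collision: Rps10 and Rps20 are ubiquitinated by the ligase ZNF598, and Rps2 and Rps3 by RNF10, on stalled ribosomes.

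The libraries are named here by letter: chow A (barcode ATCGT), chow B (barcode AGCTA), chow C (barcode CGTAA), HFHS D (barcode CTAGA), HFHS E (barcode GATCA) and HFHS F (barcode GCATA). Which animal a barcode stands for is not stated, and E has a monosome library only. Totals ran from 795145 to 1612324 counts in monosomes and from 147212 to 279331 in disomes. Chow library B stood apart in both classes: 30 genes, none of them a member, had over 20 CPM (counts scaled to the same library total) there and over 8 times the level of any monosome library of another barcode, after adding 1 CPM to that level. They took 4.15% of its monosome counts and 3.97% of its disome counts, against at most 0.0377% in any library of another barcode. Monosome library E stood apart in the members themselves, as described below with its values. All levels and changes are relative to the average gene, no mRNA was measured, and fewer hepatocytes cannot be told apart from less RNA per cell.

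The start sites of the members show what the rule did not use. RefSeq (GRCm38.p6) gave a promoter window for 24 of the 32 members. In 7 of these 24 (29.2%) the annotated start was a C followed by at least 4 pyrimidines on the strand of the gene, against 3.01% of all 27025 genes in the table. Within 5 bases of the start on either side, 12 of the 24 had such a run, against 21.2% of all genes. A match is a description of these letters at the annotated start and nothing more. The 7 windows are shown from 10 bases before the start to 20 bases from it, with the run in capitals. Where a chow log2 ratio of disome to monosome footprints was tested for these genes, it ran from -0.43 (Fau) to 0.88 (Rps6). Rps10 and Rps27 had none. The windows of Rps2 and Rps23, which lie near the ends of the range of ratios, follow with the nearest run in capitals.
Fau (chr19:6057937-6057966, plus strand): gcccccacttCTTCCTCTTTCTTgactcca
Rps6 (chr4:86857348-86857377, minus strand): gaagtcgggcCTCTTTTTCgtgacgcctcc
Rps10 (chr17:27635225-27635254, minus strand): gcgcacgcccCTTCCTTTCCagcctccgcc
Rps15a (chr7:118116128-118116157, minus strand): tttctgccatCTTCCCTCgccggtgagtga
Rps18 (chr17:33955646-33955675, minus strand): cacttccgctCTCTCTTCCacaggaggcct
Rps21 (chr2:180257369-180257398, plus strand): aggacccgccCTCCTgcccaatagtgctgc
Rps27 (chr3:90213629-90213658, minus strand): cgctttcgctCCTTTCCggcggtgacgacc
Rps2 (chr17:24720053-24720082, plus strand): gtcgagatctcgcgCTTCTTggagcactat
Rps23 (chr13:90923112-90923141, plus strand): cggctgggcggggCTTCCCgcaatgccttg

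Together the members took 0.587% ± 0.012 of chow monosome counts (SD, n = 3) and 0.726% ± 0.026 of chow disome counts (n = 3). In HFHS they took 0.473% ± 0.146 of monosome counts (n = 3) and 0.661% ± 0.051 of disome counts (n = 2). The chow monosome shares were close to each other, at 0.577% in A, 0.601% in B and 0.585% in C. The HFHS monosome shares were 0.608% in D, 0.317% in E (Wilson 95% interval 0.307 to 0.327) and 0.493% in F (0.482 to 0.504). Library D thus lay just above the chow libraries, F below them, and E far below all. Disome shares were 0.721% in A, 0.755% in B, 0.703% in C, 0.697% in D and 0.625% in F. All 5 disome shares lay above all 6 monosome shares, and F was again below D. That order did not hold with the 10 most abundant genes left out of the totals. Disome F was then at 0.737%, below monosome D (0.781%), B (0.7515%) and C (0.745%). No test was made on these sums.

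**Figure D1:**
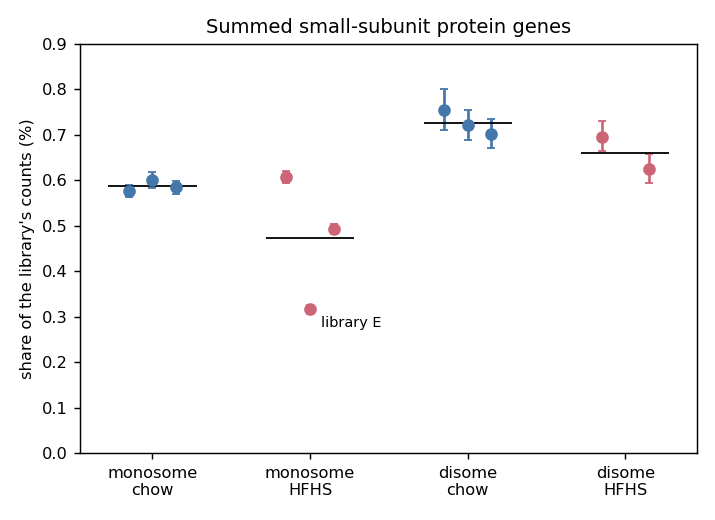
Share of each library's counts (%) that fell on the 32 genes, by footprint class and diet; points are libraries, bars are Wilson 95% intervals (counting error only) and lines are group means. Monosome library E lies at 0.317%, below the other 5 monosome libraries at 0.493% to 0.608%.

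Single members differed in how well they were measured. Rps27 had 0 counts in every library, which allows up to 0.413 CPM over all monosome libraries and 2.62 CPM over all disome libraries (3 counts, counting error only). Rps10 had 13 to 31 counts in a monosome library and 2 to 10 in a disome library. Rps18 had 14 to 48 and 6 to 12. These mRNAs code for core proteins of every 40S subunit, and whether reads shared with pseudogenes were dropped for them was not tested. The other 29 members had a mean of at least 50 counts per monosome library. Their chow monosome means ran from 76.8 CPM (Rps12) to 389.6 CPM (Fau), a scale that is not per coding length, so the genes are not ranked by it. Rps27 could not be tested in any comparison, and the low-count filter left Rps10 out of the disome comparison of diets and of the footprint ratio in chow.

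The first comparison set HFHS against chow in monosome footprints. Of 31 members tested, 29 had a negative log2 fold change, with a median of -0.28, against -0.02 over all 6754 genes. The fold change was positive in 48% of all genes tested. None was called with edgeR (smallest adjusted p = 0.112) or with DESeq2, while 3.02% of all genes tested were called higher and 1.63% lower. At an unadjusted p below 0.05 there were 4 of 31 members (Rps21, Rps13, Rps15 and Rps18), and 1143 of all 6754 genes. Rps21, a small protein of the particle's body, stood at 212, 234 and 230.3 CPM in chow A, B and C and at 212, 127 and 141 CPM in HFHS D, E and F. Its HFHS libraries E and F lay below chow and D at the lowest chow level, and its log2 fold change was -0.47 ± 0.17 (SE, adjusted p = 0.112). Rps6, the substrate of the S6 kinases, stood at 277, 243 and 261 CPM in chow and at 314, 129 and 270.4 CPM in HFHS D, E and F. Its libraries D and F lay on both sides of the highest chow level and only E was below chow, and the log2 fold change was -0.11 ± 0.30 (adjusted p = 0.915).

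Most of this shift came from library E. Of the 29 members with a mean of at least 50 monosome counts, 28 were lowest in E among the 6 monosome libraries, against 18.5% of all 2439 genes at that level. The exception was Rps29, at 134 CPM in E and 131 CPM in F. Relative to the mean of D and F, the members in E had a median log2 difference of -0.78, against 0.01 over all 2439 genes. The spread among members was wide: E held 0.335 of the level of D and F for Rps12, 0.372 for Rps20, 0.424 for Rps7 and 0.444 for Rps6, but 0.802 for Rps15 and 0.803 for Rps29. Rps12, which in E rested on 29 counts, sits in the beak of the subunit, and Rps20 in its head. Of the sparse members, Rps18 was also lowest in E (12.5 CPM), while Rps10 was not (18.7 CPM, against 8.53 CPM in F).

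In depth, library E was like the others: it held 1196240 counts and 6600 genes with at least 10 counts, inside the range of the other monosome libraries. Other properties of the library were not tested against its member levels. Library F lay below the chow mean for 28 of 29 members, with a median log2 difference of -0.22, and library D above it for 18 of 29, with a median of 0.07. The median over all 2439 genes was 0.00 in both. Without E, the median log2 fold change with HFHS was -0.05, 21 of 31 members were negative, and none was called (smallest adjusted p = 0.396). Without D it was -0.45. Rps18 (log2 fold change -1.11, adjusted p = 0.0323) and Rps21 (-0.72, adjusted p = 0.0133) were then called lower, among 68 lower calls over all 7052 genes. Without B the median was -0.22.

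**Figure D2:**
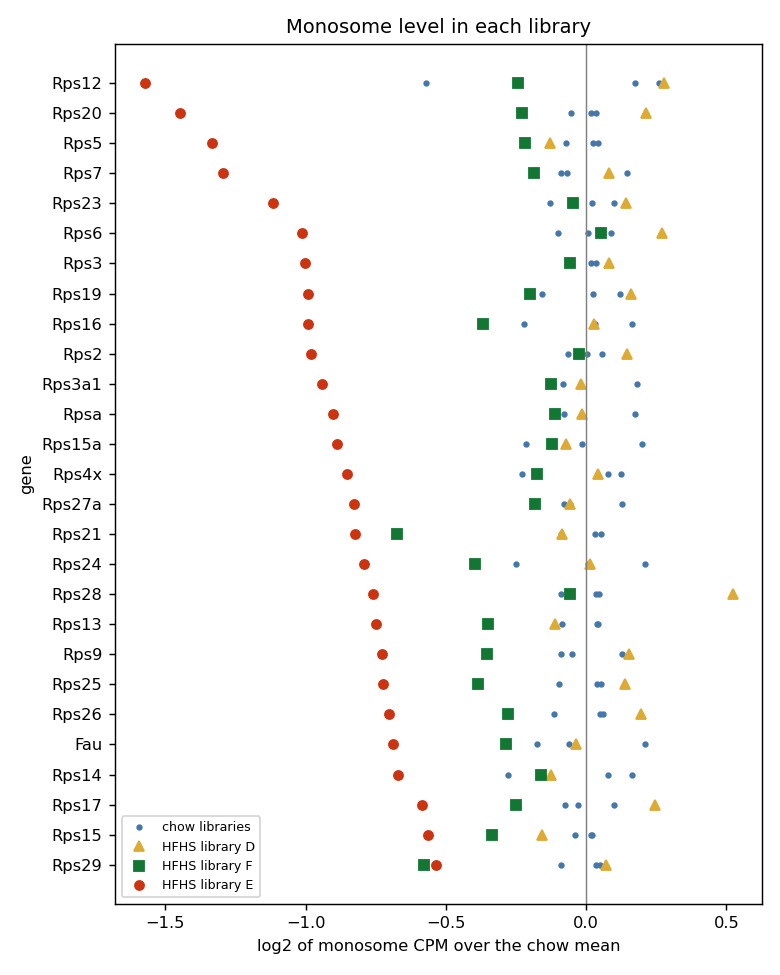
Monosome level of single members in each library, as log2 of its CPM over the chow mean (0 marks the chow mean); points are libraries. Library E is below the chow mean for every member drawn, from -1.57 for Rps12 to -0.54 for Rps29, while D scatters around it and F lies below it for all but Rps6.

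In disome footprints, 20 of 30 members tested were lower in HFHS and 10 higher, where 47.5% of all genes tested were higher. The median log2 fold change was -0.13, against -0.03 over all 2804 genes. None was called with edgeR (smallest adjusted p = 0.0945) or DESeq2, and 1.82% of all genes were called higher and 1.14% lower. At an unadjusted p below 0.05 there were 2 of 30 members (Rps29 and Rps24), and 375 of all 2804 genes. Rps29, a zinc-binding protein of the head, had 201, 184 and 273 CPM in chow A, B and C and 146 and 144 CPM in HFHS D and F. The groups did not overlap, and the log2 fold change was -0.70 ± 0.24 (adjusted p = 0.0945). The median over members was -0.05 without chow disome library B, -0.04 without F, -0.24 without C and -0.21 without D, so its size depended on single libraries.

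The difference of the diet effects, disome minus monosome, had a median of 0.25 over 31 members, against 0.01 over all 7236 genes. It was above 0 in 25 of 31 members and in 50.9% of all genes. No member was called, and 0% of all genes tested were called in either direction, with edgeR or DESeq2. The smallest adjusted p of a member was 1. At an unadjusted p below 0.05 there was 1 member (Rps13, 0.64 ± 0.28) among 358 genes in all. Without library E the median was -0.02 and 14 of 31 members were above 0, and no other single library left out took it below 0. It was 0.10 without chow disome library C, 0.14 without HFHS disome library D and 0.42 without monosome library D. In a fit with the barcode as a replicate block, to which library E adds nothing, the median was 0.02 and 13 of 31 members were below 0. The median SE of a member was 0.288 on the log2 scale, which limits what these libraries can show for a single gene.

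**Figure D3:**
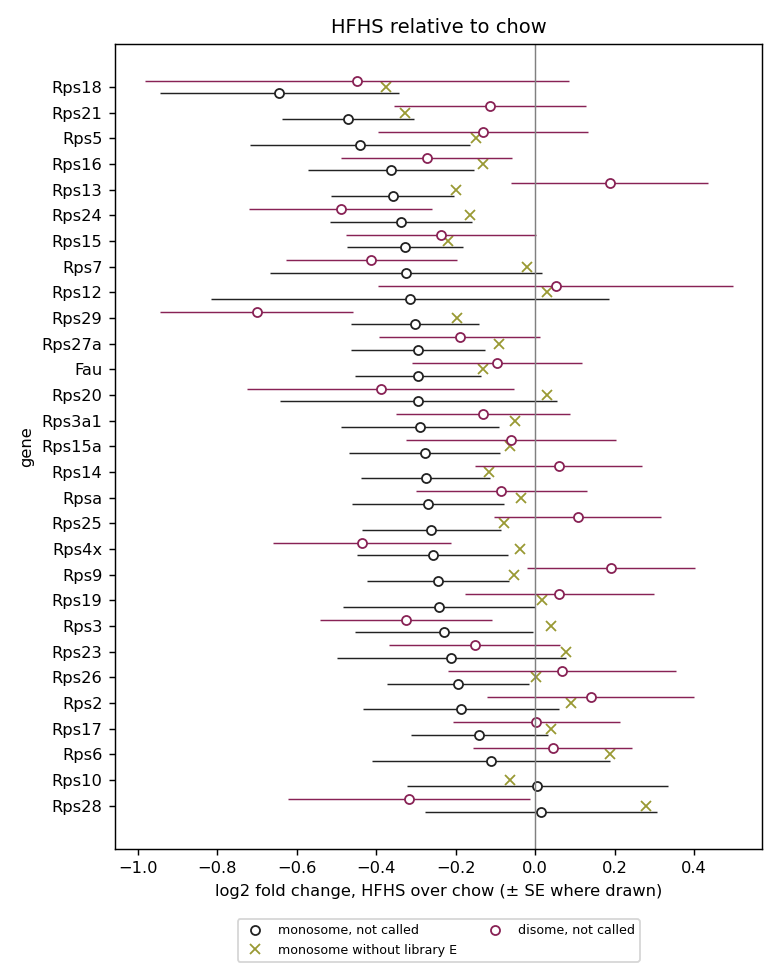
Log2 fold change of HFHS over chow for single members in monosomes (all libraries, and without library E) and in disomes; circles are edgeR estimates with SE bars, and crosses are estimates without library E, drawn without bars. The circles are open because no member was called. Most monosome circles lie below 0, and most crosses lie closer to 0, those of Rps6, Rps10 and Rps28 excepted. The medians over all 31 members were -0.28 and -0.05.

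The ratio of disome to monosome footprints varied more among members than the diet effects did, as it did among all genes. The SD over members was 0.60 for the log2 ratio in chow (1.04 over all genes tested), 0.13 for diet in monosomes (0.45) and 0.22 for diet in disomes (0.48). In chow, 9 of 30 members tested were called higher in disomes and 5 lower, where 21.6% of all 4713 genes were called higher and 23.3% lower. The shares called are thus not far from those of all genes. The median log2 ratio was 0.23, against -0.01 over all genes tested. Without the low-count filter these medians were 0.085 and -0.27, and without disome library A the members' median was 0.15. The members spanned 2.68 log2 units, from -1.31 for Rps2 to 1.37 for Rps27a.

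Rps27a is made as ubiquitin fused to a 40S protein and cut apart after translation. It had 465, 607 and 391 CPM in chow disomes A, B and C and 188, 214 and 186 CPM in chow monosomes. In HFHS it had 442 and 446 CPM in disomes D and F and 188, 110.3 and 173 CPM in monosomes D, E and F. Every disome library lay above every monosome library. The log2 ratio was 1.37 ± 0.16 in chow (SE, edgeR adjusted p = 5.69e-09) and 1.49 ± 0.20 in HFHS (adjusted p = 1.77e-06). Libraries of the same barcode gave 1.30 in A, 1.51 in B, 1.08 in C, 1.23 in D and 1.37 in F. It was the 1 member called in both diets under every alternative run without a barcode block (14 in chow, 12 in HFHS).

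Fau encodes the other such fusion, of a ubiquitin-like protein to eS30, and its ratio lay on the other side. It had 303, 253 and 264 CPM in chow disomes and 374, 450.1 and 345 CPM in chow monosomes, which did not overlap. The log2 ratio was -0.43 ± 0.16 (adjusted p = 0.0262). In HFHS the classes overlapped, with 284 and 256 CPM in disomes and 379.7, 242 and 319.6 CPM in monosomes (log2 ratio -0.22 ± 0.20, adjusted p = 0.453). The chow call was lost in DESeq2 (adjusted p = 0.0734) and in 4 of the 13 other alternatives without a barcode block.

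Rps23 sits at the decoding centre of the subunit. It had 284, 373 and 229 CPM in chow disomes A, B and C against 127, 141 and 149 CPM in monosomes, with no overlap. In HFHS it had 284 and 259.9 CPM in disomes against 153, 64.1 and 135 CPM in monosomes D, E and F. The log2 ratio was 1.12 ± 0.18 in chow (adjusted p = 2.11e-06) and 1.20 ± 0.35 in HFHS (adjusted p = 0.0338). The HFHS call was lost without disome library D (adjusted p = 0.315) or F (adjusted p = 0.237), each of which leaves 1 disome library. The lone library is then assumed to vary like the other group.

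Rps24, a protein mutated in some families with Diamond-Blackfan anaemia, had 279.6, 228 and 194 CPM in chow disomes against 122, 102 and 141 CPM in monosomes. In HFHS it had 182 and 165 CPM in disomes against 123, 70.3 and 92.5 CPM in monosomes. The classes did not overlap in either diet, with log2 ratios of 1.00 ± 0.18 (adjusted p = 2.86e-05) and 0.86 ± 0.24 (adjusted p = 0.00849). The HFHS call was lost without disome library D (adjusted p = 0.136) or F (adjusted p = 0.0603).

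Rps6 had 547, 405 and 413 CPM in chow disomes against 277, 243 and 261 CPM in monosomes, without overlap. The log2 ratio was 0.88 ± 0.15 (adjusted p = 9.42e-06). In HFHS it had 523 and 466 CPM in disomes against 314, 129 and 270.4 CPM in monosomes. The classes did not overlap there either, monosome library E was far below D and F, and the ratio was not called (1.05 ± 0.42, adjusted p = 0.149). Without library E it was called at 0.77 (adjusted p = 0.00351), and without monosome library D at 1.33 (adjusted p = 0.0028).

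Rps4x, the X-linked form of eS4, had 244, 221 and 254 CPM in chow disomes against 163, 158 and 128 CPM in monosomes, with a log2 ratio of 0.77 ± 0.17 (adjusted p = 0.000393). Rps7 had 362, 253 and 245 CPM against 173, 200.5 and 171 CPM, a log2 ratio of 0.75 ± 0.17 (adjusted p = 0.000385). Neither overlapped in chow. In HFHS, disome library D of Rps7 (182 CPM) fell below its monosome library (192 CPM), and neither gene was called (adjusted p = 0.0774 for Rps4x and 0.408 for Rps7). Fitting all libraries together ended the chow call of Rps7 (adjusted p = 0.11).

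Rps15a had 126, 177 and 159 CPM in chow disomes against 96.2, 112 and 83.8 CPM in monosomes, with a log2 ratio of 0.73 ± 0.21 (adjusted p = 0.00416). In HFHS it had 149.9 and 157 CPM against 92.5, 52.5 and 89.2 CPM, a log2 ratio of 0.96 ± 0.25 (adjusted p = 0.00544). The classes did not overlap in either diet, and the HFHS call was lost without disome library D (adjusted p = 0.0687) or F (adjusted p = 0.0878). Rps25, which helps viral internal ribosome entry sites recruit the 40S subunit, was called in HFHS (log2 ratio 0.72 ± 0.23, adjusted p = 0.0215), with 263 and 272 CPM in disomes against 217, 119 and 151 CPM in monosomes. It was 0.34 ± 0.16 in chow (adjusted p = 0.087). The HFHS call was kept in 7 of 12 alternatives: its adjusted p was 0.0559 with DESeq2, 0.0635 without library E, 0.052 without monosome library F, and 0.166 and 0.19 without disome libraries D and F.

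Rps2 (ENSMUSG00000044533), a protein of the mRNA entry channel, had the lowest ratio in chow. It had 142, 127 and 159 CPM in disomes A, B and C and 363, 394 and 379.9 CPM in monosomes. In HFHS it had 170.2 and 165 CPM in disomes and 419.8, 192 and 373 CPM in monosomes D, E and F. Every disome library lay below every monosome library. The log2 ratio was -1.31 ± 0.17 in chow (adjusted p = 4.24e-08), a call kept in all 14 alternatives without a barcode block. In HFHS it was -0.97 ± 0.40 (adjusted p = 0.129), and -1.23 without library E (adjusted p = 0.000194).

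Rps12 and Rps15, also called lower in chow, were nearer the threshold. Rps12 had 51.2, 38.0 and 35.0 CPM in chow disomes, on 13, 6 and 11 counts, against 92.0, 51.8 and 86.8 CPM in monosomes. The ranges only just missed each other (log2 ratio -0.85 ± 0.30, adjusted p = 0.0208). Rps15, at the decoding site on the head, had 225, 228 and 159 CPM against 290.1, 279 and 291 CPM (-0.45 ± 0.16, adjusted p = 0.0245). DESeq2 called Rps2 alone lower: its adjusted p was 0.0799 for Rps12 and 0.0806 for Rps15. Without monosome library A or disome library C, 2 members were called lower, where 885 of 3319 and 1000 of 6334 genes were. Without monosome library B or C or disome library B it was 3 members, where 868 of 3284, 818 of 3279 and 1169 of 6306 genes were. In HFHS the footprint classes of both genes overlapped, and neither was called.

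**Figure D4:**
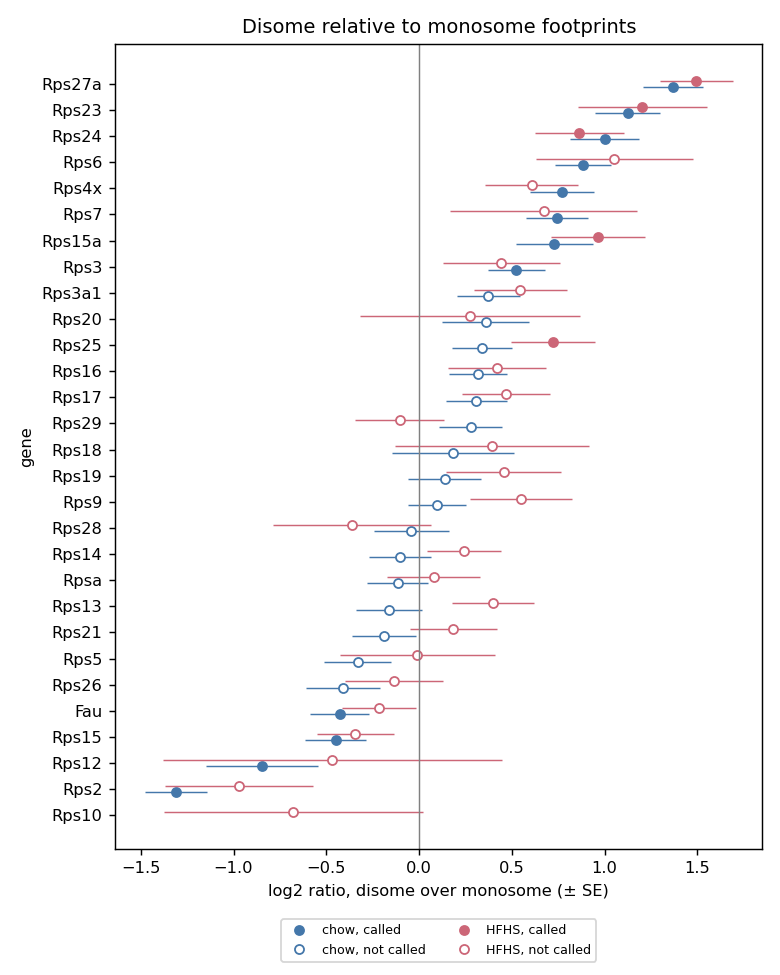
Log2 ratio of disome to monosome footprints for single members, in chow and HFHS, with SE bars; filled points were called by edgeR and open points were not. The order of the members is much the same in both diets, from Rps2 at -1.31 in chow to Rps27a at 1.37; Rps10 has an HFHS value only.

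The mRNAs of the proteins that carry ubiquitin on collided ribosomes were spread over this range. The ratios describe footprints on these mRNAs, and ubiquitin on the proteins was not measured. Rps2 was the lowest member. Rps3 (ENSMUSG00000030744), at the mRNA entry site, was called higher in chow (log2 ratio 0.52 ± 0.15, adjusted p = 0.00477), with 311, 386 and 347 CPM in disomes A, B and C against 244, 256 and 259 CPM in monosomes. That call was lost in 4 of 14 alternatives, and in HFHS the ratio was 0.44 ± 0.32 (adjusted p = 0.351). Rps20 had 122, 69.6 and 85.8 CPM in chow disomes against 78.6, 79.7 and 74.8 CPM in monosomes, which overlapped (0.36 ± 0.23, adjusted p = 0.214). Rps10 was tested in HFHS only, on 3 and 2 disome counts (-0.68 ± 0.70, adjusted p = 0.513).

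The 16 members tested in chow and not called ranged from -0.41 (Rps26) to 0.37 (Rps3a1). Among them Rpsa (-0.12 ± 0.16), which also occurs as a laminin-binding protein, and Rps14 (-0.10 ± 0.17), a protein of the platform, lay within 1 SE of 0. Without both chow libraries of barcode B, 7 of 31 members were called higher and 3 lower, where 876 and 1015 of all 5527 genes were.

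In HFHS, 5 of 31 members were called higher and none lower, where 11.5% of all 7437 genes were called higher and 13.6% lower. At an unadjusted p below 0.05 there were 8 of 31 members, Rps2 the 1 of them with a negative ratio, and 2733 of all 7437 genes. DESeq2 also called 5 higher, Rps25 not among them, and 1 lower, where 629 and 611 of all 7437 genes were. With the barcode as a replicate block, to which library E adds nothing, 7 members were called higher and 6 lower. That fit called 945 of all 7437 genes higher and 1089 lower. The median log2 ratio in the main fit was 0.40, against -0.07 over all genes, and the members' median depended on single libraries. It was 0.19 without library E, which had no disome library here, 0.18 without disome library D and 0.69 without monosome library D. Leaving out monosome library D gave 14 of 30 members higher, where 818 of all 5462 genes were called higher and 839 lower. Of the 5 called in HFHS, 4 were also called in chow. Over the 30 members tested in both diets, the ratios in chow and HFHS had a Pearson correlation of 0.93 (Spearman 0.90) and the same sign in 25. This is a description across genes, and both ratios share any fixed property of each coding sequence.

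**Figure D5:**
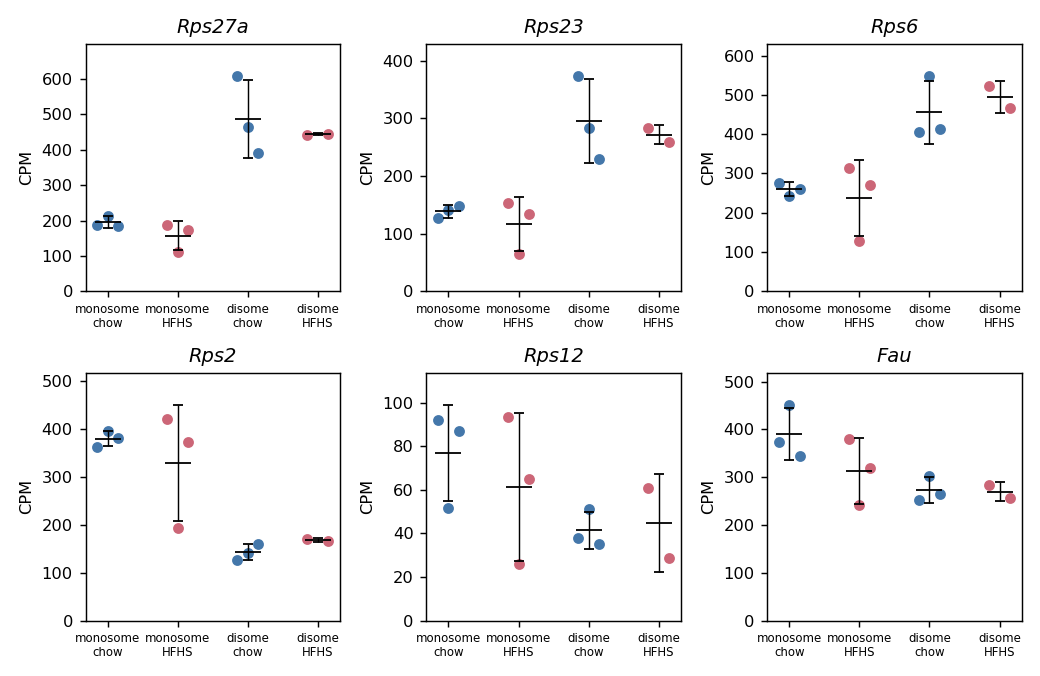
Levels (CPM) of 6 members in each library by footprint class and diet; points are libraries, horizontal marks are means and bars are SD (n = 3, and n = 2 for HFHS disomes). Rps27a (ENSMUSG00000020460), Rps23 and Rps6 lie higher in disomes, Rps2 lower, and the low HFHS monosome point in each panel is library E.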

How the data were processed

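Per the labels' protocols, frozen liver was digested with RNase I, and RNA of about 30 nt (monosome footprints) or 60 nt (disome footprints) was cut from a gel and given adaptors with a sample barcode and a molecular identifier of 8 nt. Reads passed through cutadapt 3.5 and Bowtie2, per the submitters' processing notes. Not given in the sources used here are genome build, annotation, use of the identifiers, strand setting and treatment of reads shared with pseudogenes. The authors deposited raw counts per coding sequence, not normalized, for 22019 genes in 11 libraries. The columns name class, diet and barcode but no replicate number, so each was placed in its group. The labels give replicates without saying that each came from its own animal, so a p-value measures spread among these samples alone, which may be technical.

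Genes were tested over the whole table with edgeR 4.0.16 under R 4.3.3 (genes kept by filterByExpr at minimum count 10, TMM, robust quasi-likelihood F-test, two-sided, Benjamini-Hochberg adjustment over all genes tested). Called means adjusted p under 0.05. The SE of a log2 fold change is its size over the square root of F. The 5 comparisons were diet within each class, the difference of these diet effects, and disomes against monosomes in each diet. Levels are CPM with TMM factors over all 11 libraries, as mean ± SD. The scripts were tested on simulated data. Alternatives were DESeq2 1.42.0, other factors and filters, 1 fit over all libraries, and leaving out libraries. Intervals of shares are 95% Wilson intervals, and the floor is 3 counts; both cover counting error only. Values in every library are given for up to 6 called members in each direction per comparison, for Rps6, and for the ubiquitin fusions Rps27a and Fau. Rps3, Rps10, Rps20, Rps21, Rps25 and Rps29 were singled out after their values were seen. The part of the rule that asks for levels per codon could not be applied without coding lengths. The members, lists and tests were chosen with earlier results of these data known. The RefSeq gene table used (GRCm38.p6) matched 0 of the 22019 identifiers, so the lists of large-subunit proteins, initiation factors, assembly factors, mTOR pathway genes, paralogs and cell type markers, hepatocyte markers included, were not analysed here. Member names come from a list that pairs them with identifiers, and all 32 symbols were in the RefSeq table. Counts and medians cover all members tested, but the values of some members are not reported or drawn here. The HFHS disomes' replicate 2 was not analysed here.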

Additional observations from a re-analysis of the deposited data

How the results depend on the processing

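Single libraries and settings both limit these results. Most HFHS ratio calls were lost when either HFHS disome library was left out, which leaves 1 in that group. The log2 ratios of these members stayed positive in every alternative without a barcode block. They ran from 0.93 to 1.46 for Rps23, 0.70 to 1.12 for Rps24, 0.76 to 1.12 for Rps15a and 0.55 to 1.015 for Rps25. Most of the members' monosome diet shift depended on monosome library E. The lower calls in chow depend on the test and on single libraries. The chow median depends on the filter, for the members as for all genes. The number of members called lower in chow disomes was 5. It was 1 with DESeq2 (828 of all 4713 genes), 6 without the filter (1532 of 12932) and 4 with all libraries in 1 fit (1416 of 7236). Without the libraries of barcode B it was 3, and it was 2 to 5 when 1 library was left out. Without the filter, where more sparse genes enter, the members' median chow ratio was 0.085, against -0.27 over all genes. The members' median HFHS ratio was then 0.26, against -0.39 over all genes. The members' disome diet median was -0.06 without the filter and -0.07 with all libraries in 1 fit. In HFHS, 1 member was called lower with DESeq2, without the filter, with a minimum count of 50, without robust estimation and with all libraries in 1 fit, which also called 9 higher. Leaving out 1 library gave 1 to 14 members higher and 0 to 1 lower. For the diet in monosomes it gave 0 to 2 lower. Leaving the 10 most abundant genes out of the totals gave shares of 0.743% (chow monosomes), 0.856% (chow disomes) and 0.784% (HFHS disomes). The cause of these changes was not tested. No replicate number could be used, because the columns carry none. With the barcode as a replicate block instead, 12 members were called higher and 5 lower in chow, where 1145 and 1191 of all 4713 genes were. In HFHS 7 were called higher and 6 lower, where 945 and 1089 of all 7437 genes were. For the difference of diet effects 0 members were called, and 7 of all 7236 genes were called lower. The members' medians were 0.23, 0.18 and 0.02. Library E, whose barcode has no disome library, adds nothing to the ratios in such a fit. Without E and without the block, the medians were 0.19 for the HFHS ratio and -0.02 for the difference. Same-barcode deviations correlated at 0.202, 0.377 and 0.206 in chow, against -0.26 to 0.124 for different barcodes. The same-barcode values in HFHS were 0.0318 and 0.0767. They cannot decide on pairing, because the deviations of 2 disome libraries from their mean mirror each other. In chow, every same-barcode value lay above every different-barcode value, and the genes that set library B apart were high in both its classes. What a barcode stands for is not stated, so the main fits took no pairing. If libraries of a shared barcode come from the same sample, the p-values of the main ratio fits ignore that link. Counted as pairs of a called member and an alternative, the barcode block included, 232 kept the call, 42 lost it and none reversed.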
